A study of Mus musculus with 2 samples.

Results

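The general capillary endothelial cells described here are 3412 of the 18823 cell barcodes in the deposited matrices, 2384 in the control library and 1028 in the Dnmt1iECKO library. They were chosen by their own measured RNA. A cell had at least 500 detected genes, at most 10% mitochondrial UMIs (unique molecular identifiers, which count captured RNA molecules), at least 1 UMI of the endothelial genes Cdh5 or Pecam1, and no UMI of Ptprc (leukocytes), Epcam (epithelium), Cspg4 or Myh11 (mural cells). Among these tumor endothelial cells (TECs), a member had at least 3 of the 6 general capillary markers Kit, Glp1r, Sema3c, Bmp6, Npr3 and Aplnr and fewer than 3 of the 6 aerocyte markers Car4, Ednrb, Fibin, Apln, Tbx2 and Rgs6. Levels of those 12 genes therefore describe the choice and are no finding.

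The capillary bed of the lung alveolus is built from a pair of endothelial cell types. Aerocytes are large, thin cells specialised for gas exchange, whereas general capillary cells regulate vasomotor tone, take up lipid, carry MHC class II and serve as progenitors that can renew the bed after injury. Veins and venules collect the blood downstream and are the usual site where leukocytes roll, adhere and leave the vessel.

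Both libraries came from female mice of 8-10 weeks that carried YUMMER1.7 tumors, a mouse melanoma line with a raised mutation load. Live CD31+CD45- cells were sorted from tumors of 3 pooled mice per genotype and sequenced with a 10x Genomics 3' kit. The Dnmt1iECKO mice are Cdh5CreERT2;Dnmt1fl/fl;ZsGreenlsl/lsl, in which tamoxifen removes the DNA methyltransferase Dnmt1 from Cdh5-expressing cells, that is from endothelium of all vessel types. The GEO genotype field gives the control as C57BL/6, whereas the study's methods describe control mice with the same VE-cadherin Cre and ZsGreen alleles. The labels place the tumors under the skin. The study's methods speak of lung tumors, and its results say that these were made by injecting YUMMER1.7 cells into the tail vein. The site was not tested. With 1 library per genotype there is no replicate, so every interval below covers counting error at 95% confidence only, no test was run, and genotype cannot be told apart from mouse pool, tumor, sort or library.

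Depth was alike in the members of both libraries, with a median of 9196 UMIs and 3312.5 genes per cell in control and 9373 UMIs and 3316 genes in Dnmt1iECKO. The 2 libraries shared 29 barcode sequences, 1 of them among the members. A doublet caller marked 5 control and 3 Dnmt1iECKO members, which were kept. Although CD45- cells were sorted, 2458 control and 5354 Dnmt1iECKO cells past the quality filters held a UMI of Ptprc, Epcam, Cspg4 or Myh11 and were left out. The alveolar type 2 gene Sftpc, a lung surfactant protein, stood at 47.3 and 14.8 CPM (a gene's UMIs summed over the cells of a class and scaled to the same total in each library, the usual CPM unit) in control and Dnmt1iECKO members and at 118511 and 71182 CPM in Epcam-positive cells of the same 2 libraries. These Epcam-positive cells (106 in control and 67 in Dnmt1iECKO) had at least 2 Epcam UMIs and none of Cdh5, Pecam1 or Ptprc, and serve below with 552 and 2012 Ptprc-positive cells chosen in the same way as references that should lack endothelial RNA.

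The label was checked on genes that the rule did not use. Of 11 further general capillary genes, at least 3 were detected in 100% of control and 99.8% of Dnmt1iECKO members at full depth, and in 99.5% and 99.0% after each cell was thinned to 2000 UMIs. Outside the members, 92.4% of control and 86.0% of Dnmt1iECKO TECs also had 3 or more of these 11 genes after thinning, so the list alone does not separate the cells. At least 3 of 9 aerocyte identity genes outside the rule were likewise detected in 93.1% of control and 90.1% of Dnmt1iECKO members at full depth. After thinning these shares were 61.1% and 56.0%, so detecting 3 genes of a list does not establish the label. Plvap, which forms the diaphragms of fenestrae and caveolae, was at 959 CPM in control and 718 CPM in Dnmt1iECKO members against 26.9 and 15.3 CPM in aerocytes. Cd93, a surface lectin of angiogenic endothelium, was at 1022 and 953 CPM in members against 31.3 and 29.5 CPM in aerocytes. Cadm1, an adhesion molecule, was at 423 and 418 CPM in members and 10.2 and 8.05 CPM in aerocytes. Not all 11 genes were higher in members, and only some of the 11 are named here. Scn7a, a sodium channel gene, was at 854 and 764 CPM in members and 1758 and 1730 CPM in aerocytes. Clec1a was at 601 and 619 CPM against 820 and 824 CPM.

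**Figure D1:**
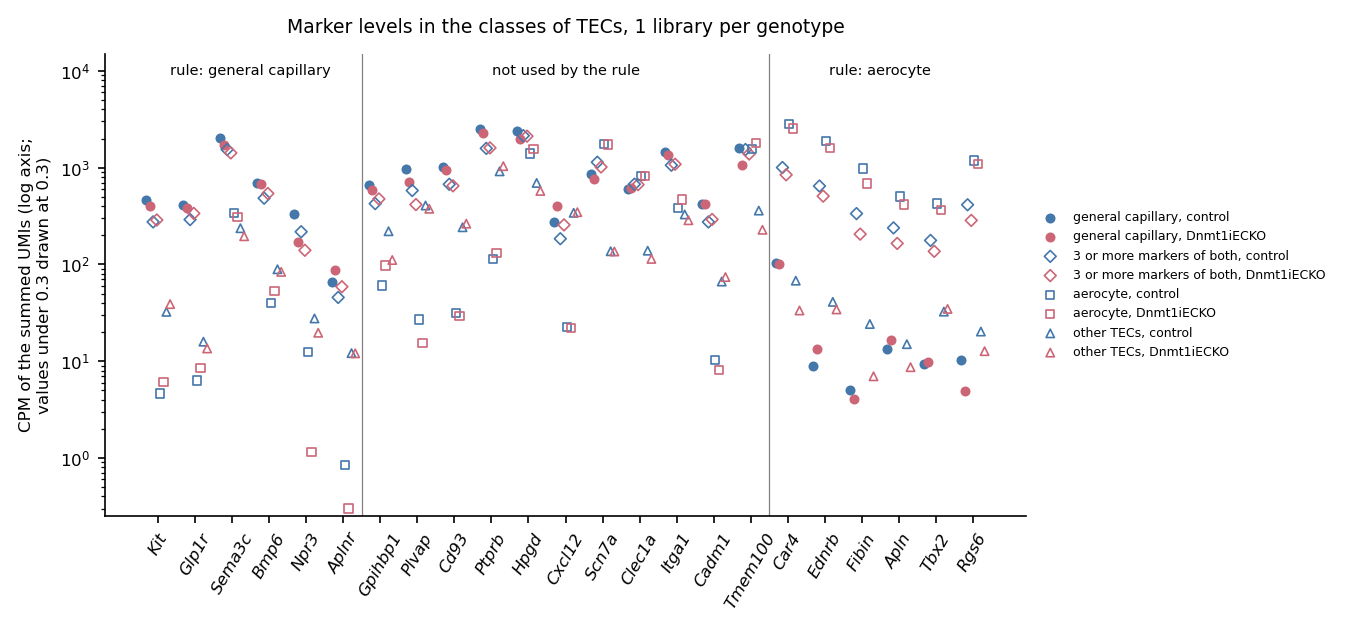
CPM of the summed UMIs (log axis) of 23 marker genes in 4 classes of TECs, with control in blue and Dnmt1iECKO in red and 1 library per symbol. Filled circles, the general capillary cells, stand above the aerocyte squares for the 6 rule genes at the left and for Plvap, Cd93, Ptprb, Cxcl12 and Cadm1, and below them for the 6 aerocyte genes at the right, since the rule chose cells on the outer panels.

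The genes that led the members over aerocytes, outside the rule, were named by their log2 fold in whichever library gave the lower value. Plcb1, a phospholipase C that signals downstream of Gq-coupled receptors, came first with 1448 CPM in control and 1710 CPM in Dnmt1iECKO members against 30.3 and 36.0 CPM in aerocytes, a log2 fold of 5.53 in each library. Cadm1, Sntb1, Plvap, Cd93, Gja4 (a gap junction connexin of arterial and capillary endothelium), Entpd1 (which degrades extracellular ATP), Mctp1, Ntn1 (netrin-1) and Lepr (leptin receptor) followed, and Hmcn1, Mcf2l, Gna14, Edn1 (endothelin-1) and Cemip2 completed the 15. Edn1, a vasoconstrictor peptide, was at 265 and 245 CPM in members against 11.1 and 7.67 CPM in aerocytes. Against all TECs outside the members the differences were smaller, and Plcb1 again led with log2 folds of 1.35 and 1.38, followed by Gprin3, Gna14 and Chrm2, the M2 muscarinic receptor, at 88.0 and 95.4 CPM in members. Several of the same genes led over both comparison groups, and aerocytes belong to the second group. These differences come from the cells the rule sorted and carry no test.

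The members formed a gradient in the number of markers detected, which followed depth. Exactly 3 of the 6 markers were found in 296 control and 170 Dnmt1iECKO members, which had medians of 4759 and 6369.5 UMIs, whereas all 6 were found in 623 and 239 members with medians of 12055 and 11844 UMIs. Among control members 12.4% (11.1 to 13.8%) had exactly 3 markers, and among Dnmt1iECKO members 16.5% (14.3 to 18.95%). Bmp6, a BMP ligand, went from 346 CPM at 3 markers to 795 CPM at 6 markers in control and from 286 to 770 CPM in Dnmt1iECKO. Bmp6 is itself among the 6 markers counted, so its rise follows from the grouping and is no finding. The vein genes Selp, Slc6a2 and Nr2f2 are outside the 6 and were lower at 6 markers than at 3 in both libraries. Selp (P-selectin, which lets leukocytes roll on venules) was at 561 and 1454 CPM in cells with 3 markers and at 40.5 and 198 CPM in cells with 6. Just outside the limit, the 237 control and 164 Dnmt1iECKO TECs with 2 markers and fewer than 3 aerocyte markers had 593 and 894 CPM of Selp, 188 and 113 CPM of Bmp6 and medians of 3552 and 5416 UMIs. At the other limit, 978 control and 325 Dnmt1iECKO TECs had 3 or more markers of both types and were left out. They were the deepest TECs, with medians of 16170 and 17916 UMIs, and had 1002 and 843 CPM of Car4 beside 275 and 288 CPM of Kit. The levels of Bmp6, Car4 and Kit at these limits likewise follow from the marker counts that set the groups.

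General capillary cells were about the same share of TECs in the 2 libraries. They made up 48.4% (47.0 to 49.8%) of 4922 control TECs and 49.5% (47.3 to 51.7%) of 2077 Dnmt1iECKO TECs, a log2 ratio of 0.03 (-0.08 to 0.14). After thinning every TEC to 2000 UMIs before the markers were read, the shares were 44.3% (42.8 to 45.7%) and 40.7% (38.5 to 43.0%), a log2 ratio of -0.12 (-0.24 to -0.00). The sign of the difference thus turned when cells were thinned and chosen again, which also left out TECs with under 2000 UMIs. Aerocytes were 18.0% of control and 13.3% of Dnmt1iECKO TECs, and TECs with fewer than 3 markers of either type were 13.7% and 21.5%. Fewer cells of a type and poorer recovery of that type cannot be told apart.

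The members held cells in several states, read from 6 markers each with 3 as the minimum. Vein-marked cells (Slc6a2, Prss23, Nr2f2, Lrg1, Vwf, Ch25h) were 19.5% of control and 23.1% of Dnmt1iECKO members at full depth and 5.17% (4.31 to 6.16%) and 9.49% (7.73 to 11.5%) after thinning. Venule-marked cells (Ackr1, Selp, Sele, Vcam1, Csf1, Lrg1) were 1.85% (1.35 to 2.49%) and 4.64% (3.42 to 6.14%) after thinning. Both shares were higher in Dnmt1iECKO beyond counting error, and the same held among TECs outside the members, with 3.92% and 8.11% for vein and 1.65% and 4.49% for venule markers. Reading 3 markers in a thinned cell depends on how many of the 6 are abundant, so shares of different lists are not compared. Cells with an interferon gamma (IFNγ) state (Cxcl9, Ubd, Ido1, Gbp5, Ciita, Cd274) were 15.9% (14.4 to 17.4%) of control and 19.1% (16.7 to 21.6%) of Dnmt1iECKO members at full depth. After thinning they were 2.24% (1.68 to 2.93%) of control and 4.64% (3.42 to 6.14%) of Dnmt1iECKO members. The type I interferon state was more frequent in control at full depth, at 31.0% (29.1 to 32.9%) against 24.2% (21.6 to 27.0%), but its thinned intervals overlapped, at 6.77% (5.78 to 7.87%) and 5.25% (3.94 to 6.82%). Proliferating cells were 2.20% and 2.32%, artery-marked cells 2.11% and 2.93%, and tip cells 0.302% and 0.202%, with overlapping intervals. Whether members with vein or artery markers are venous or arterial cells was not tested. The 515 control and 270 Dnmt1iECKO members with 3 or more vein or venule markers at full depth had medians of 14078 and 14992 UMIs against 8362 and 8055 in the rest, and are shown apart where a result depends on them.

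**Figure D2:**
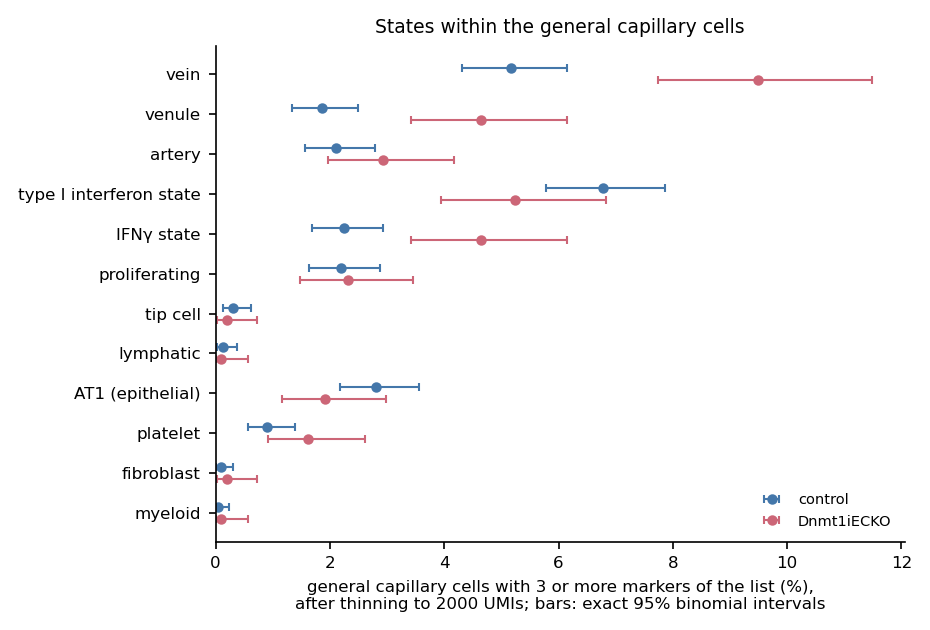
Percentage of general capillary cells (horizontal axis) with 3 or more markers of each list after thinning to 2000 UMIs, in control (blue) and Dnmt1iECKO (red), with exact binomial intervals as bars. The intervals stand apart for vein, venule and IFNγ markers, where Dnmt1iECKO is higher, and overlap for type I interferon, artery, proliferation and the non-endothelial lists.

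Dnmt1, the maintenance DNA methyltransferase targeted in the knockout, was lower in Dnmt1iECKO members. It had 1307 UMIs in control members (51.1 CPM) and 347 UMIs in Dnmt1iECKO members (29.1 CPM), a log2 ratio of -0.81 (-0.99 to -0.64). After thinning, 9.79% (8.61 to 11.1%) of control and 4.34% (3.16 to 5.80%) of Dnmt1iECKO members had a Dnmt1 UMI, against 7.62% (3.35 to 14.5%) and 6.06% (1.68 to 14.8%) of Epcam-positive cells. Before thinning those cells had medians of 25472 and 28144 UMIs. Dnmt1 RNA was still counted in Dnmt1iECKO members with 3, 4, 5 and 6 markers, at 46.3, 22.9, 25.7 and 29.5 CPM, against 49.6, 47.4, 53.1 and 50.8 CPM in control. In aerocytes Dnmt1 was at 45.4 and 30.3 CPM, and in Ptprc-positive cells at 53.4 and 56.7 CPM. Reads of a 3' kit fall near the end of the transcript, and whether the counted part lies within the floxed segment was not tested. Uhrf1, which brings Dnmt1 to replicating DNA, was at 6.06 and 8.30 CPM, a log2 ratio of 0.45 (0.08 to 0.83), and of 14 measured genes of the DNA methylation machinery only Dnmt1 passed 1.5-fold.

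Across all 11278 genes with at least 100 UMIs over the members, 387 were at least 1.5-fold higher in Dnmt1iECKO (3.43%) and 229 at least 1.5-fold lower (2.03%). The median log2 ratio over all of them was -0.01. These percentages are the background for the lists below over all members, in which a gene is called higher or lower only past 1.5-fold. In members with vein or venule markers, 321 of 9390 genes were higher and 201 lower. In those without, 230 of 10418 genes were higher and 251 lower. Log2 ratios and medians given below as after thinning are over the 2021 control and 775 Dnmt1iECKO cells that met the rule when the markers were read in the thinned counts, whereas thinned shares of members keep the members chosen at full depth. The thinned ratios and medians cover only the 6917 genes that still had 100 UMIs, so a list can hold fewer genes there. Among genes without a dominating single cell (none with over 20% of a gene's UMIs in either library), Gdpd3 and Mnd1 were the furthest up and Ifi208, Cyp1a1 and Rpl29 the furthest down. Genes set by 1 cell were passed over: Upk3b and Msln, of mesothelium, had 97.2% and 99.3% of their control UMIs in 1 cell.

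**Figure D3:**
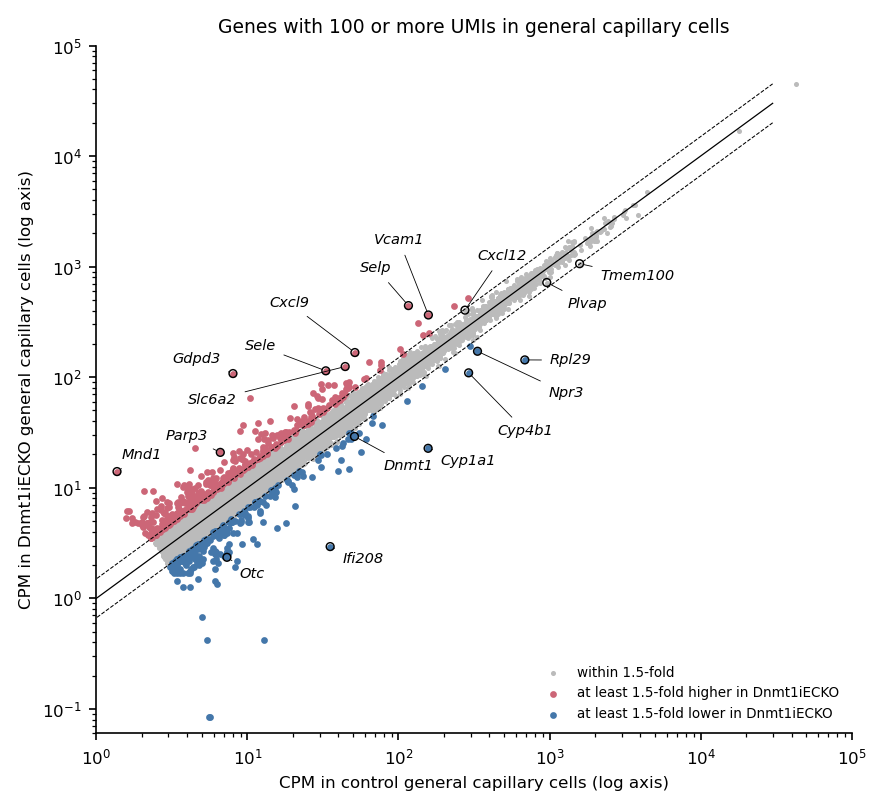
CPM in control (horizontal) against CPM in Dnmt1iECKO (vertical) general capillary cells, both on log axes, for the 11278 genes with 100 or more UMIs, with the identity line and dashed lines at 1.5-fold. Most genes lie between the dashed lines, and Gdpd3, Mnd1, Selp, Sele, Vcam1 and Cxcl9 lie above them and Ifi208, Cyp1a1, Rpl29, Cyp4b1, Npr3 and Dnmt1 below. The lowest points of all come from genes with nearly all control UMIs in 1 cell, such as Msln.

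Gdpd3, a glycerophosphodiester phosphodiesterase gene that acts in lysolipid metabolism (chr7:126766334-126775649, plus strand, GRCm38), was at 8.02 CPM (205 UMIs) in control and 107.9 CPM (1286 UMIs) in Dnmt1iECKO members, a log2 ratio of 3.75 (3.54 to 3.97). After thinning, a Gdpd3 UMI was found in 1.25% (0.839 to 1.79%) of control and 20.4% (17.9 to 23.03%) of Dnmt1iECKO members, and in 0% and 4.55% of Epcam-positive cells. The difference was not confined to members or to endothelium. Gdpd3 was at 4.26 and 308 CPM in aerocytes and 3.07 and 72.5 CPM in other TECs, and in cells without Cdh5 and Pecam1 it was at 5.55 and 169 CPM where Ptprc was present and 0.944 and 10.8 CPM where Epcam was present. Mnd1, a meiotic recombination gene (chr3:84087933-84155786, minus strand), was at 1.37 CPM (35 UMIs) in control and 14.01 CPM (167 UMIs) in Dnmt1iECKO members, a log2 ratio of 3.36 (2.82 to 3.92). As a mean of CPM over cells the log2 ratio of Mnd1 was 2.21, and 0.259% (0.0950 to 0.562%) of control and 0.908% (0.416 to 1.72%) of thinned Dnmt1iECKO members had its UMI. Mnd1 was at 2.24 and 1.35 CPM in the Ptprc-positive cells.

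Ifi208, a member of the interferon-inducible p200 family (chr1:173673675-173698395, plus strand), was at 35.3 CPM (902 UMIs) in control and 2.94 CPM (35 UMIs) in Dnmt1iECKO members, a log2 ratio of -3.59 (-4.12 to -3.10). After thinning the log2 ratio of Ifi208 was -1.97, and among thinned members 5.82% (4.90 to 6.85%) of control and 1.11% (0.555 to 1.98%) of Dnmt1iECKO members had an Ifi208 UMI. In aerocytes Ifi208 was at 113 and 80.5 CPM, a log2 ratio of -0.48 (-0.71 to -0.27). Cyp1a1, the xenobiotic-metabolising cytochrome P450 and main target of the aryl hydrocarbon receptor (chr9:57687928-57703824, plus strand), was at 157 CPM in control and 22.7 CPM in Dnmt1iECKO members, a log2 ratio of -2.79 (-2.97 to -2.61). Its UMI was found in 22.8% (21.1 to 24.6%) of control and 3.63% (2.56 to 4.99%) of Dnmt1iECKO members after thinning, and in 0 of 105 and 0 of 66 Epcam-positive cells, which allows up to 3.45% and 5.44%. Of the other measured genes of the receptor's pathway, a list drawn up after Cyp1a1 was seen, none passed 1.5-fold.

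Rpl29, a ribosomal protein gene of the large subunit (chr9:106429454-106431568, plus strand), was at 686 CPM in control and 143 CPM in Dnmt1iECKO members, a log2 ratio of -2.26 (-2.33 to -2.19). The same gap stood in cells that are not endothelial: Rpl29 was at 953 and 187 CPM in Ptprc-positive cells, a log2 ratio of -2.35 (-2.40 to -2.29), and at 503 and 102 CPM in Epcam-positive cells, a log2 ratio of -2.31 (-2.52 to -2.10). Gdpd3 and Rpl29 thus differed between the libraries also in cells with no Cdh5 or Pecam1 UMI, and whether the mouse strains, the libraries or the deletion account for this cannot be told apart. Parp3, which lies 38753 bases beyond Rpl29 on chromosome 9, was at 6.61 and 20.9 CPM in members, a log2 ratio of 1.66 (1.37 to 1.95), whereas in Ptprc-positive cells it was at 21.4 and 12.1 CPM. Dnmt1 is on the same chromosome. Genes past 1.5-fold were 7.18% of the 613 measured on chromosome 9, within the range over chromosomes, from 2.53% on X to 9.20% on chromosome 1.

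The promoters of the 2 genes furthest up and the 2 furthest down are shown because the deleted enzyme methylates cytosine in CG. Each run comes from the 250 bases before the RefSeq gene start on GRCm38.p6 and is given 5' to 3' on the gene's strand with every CG in capitals. For Gdpd3 the last 80 of the 250 bases lie in a GENCODE exon and are left out.
Gdpd3, chr7:126766164-126766333, plus strand: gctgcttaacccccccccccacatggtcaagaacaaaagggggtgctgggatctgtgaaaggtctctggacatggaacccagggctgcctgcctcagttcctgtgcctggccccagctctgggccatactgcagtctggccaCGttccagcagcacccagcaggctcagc
Mnd1, chr3:84155787-84156036, minus strand: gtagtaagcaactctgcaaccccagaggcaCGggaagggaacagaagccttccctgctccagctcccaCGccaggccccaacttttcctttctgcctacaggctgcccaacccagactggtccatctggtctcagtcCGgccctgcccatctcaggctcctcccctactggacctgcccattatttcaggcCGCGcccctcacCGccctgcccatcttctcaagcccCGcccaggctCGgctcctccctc
Ifi208, chr1:173673415-173673664, plus strand: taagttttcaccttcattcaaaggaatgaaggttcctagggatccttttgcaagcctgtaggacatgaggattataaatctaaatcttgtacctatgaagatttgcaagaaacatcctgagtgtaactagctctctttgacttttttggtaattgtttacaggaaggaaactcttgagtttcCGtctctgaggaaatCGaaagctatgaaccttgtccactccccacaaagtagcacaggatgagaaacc
Cyp1a1, chr9:57697363-57697612, plus strand: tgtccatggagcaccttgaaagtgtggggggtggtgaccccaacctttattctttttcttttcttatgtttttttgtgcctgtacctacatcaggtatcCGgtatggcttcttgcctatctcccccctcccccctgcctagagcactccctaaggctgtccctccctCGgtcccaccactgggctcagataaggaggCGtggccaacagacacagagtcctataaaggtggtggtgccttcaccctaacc
In the full 250 bases Gdpd3 had 6 CG, Mnd1 8, Ifi208 2 and Cyp1a1 3 (for Gdpd3, 1 of the 6 is in the stretch shown), beside a median of 6 over 32851 RefSeq promoters. At least as many were held by 50.4% of promoters for Gdpd3, 43.0% for Mnd1, 81.2% for Ifi208 and 71.0% for Cyp1a1. Promoters matched to the measured genes had a higher median, 18 CG over 8868 genes. It was 13 over 261 genes at least 1.5-fold higher and 11 over 163 genes at least 1.5-fold lower. The Cyp1a1 run lies within the span of its GENCODE gene and outside its exons, and those of Mnd1 and Ifi208 lie before their genes. The core of the aryl hydrocarbon receptor's motif, GCGTG, was searched on both strands of the 250 bases. It was present 1 time each for Cyp1a1, Gdpd3 and Mnd1 and 0 times for Ifi208, and 28.2% of all promoters held it. Methylation was not measured in these libraries.

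Other genes furthest up included Esr2 (estrogen receptor beta) at 1.56 and 5.37 CPM, Rgs16 (a regulator of G protein signalling) at 4.15 and 14.3 CPM, Bok (a BCL2 family protein) at 3.40 and 10.7 CPM and Sorbs2 at 11.3 and 32.7 CPM. Dusp2, Tgfbi, Slc6a2, Ptgs2, Selp, Sele, Cxcl9 and Tyrobp completed the 15 with Gdpd3, Mnd1 and Parp3. Dusp2 was at 2.39 and 9.39 CPM in members and at 207 and 223 CPM in Ptprc-positive cells. Among genes furthest down, Cpne9 was at 8.49 and 2.18 CPM, Otc (ornithine transcarbamylase) at 7.31 and 2.35 CPM, Ptk6 at 9.23 and 3.10 CPM, Dubr at 10.9 and 3.44 CPM and Serpina3f at 39.6 and 14.2 CPM. Lilrb4a and Lilr4b, near-identical inhibitory receptor genes whose reads may be split by the counting, were at 17.9 and 4.78 CPM and at 15.6 and 4.36 CPM. Sftpc, Sftpa1 and Wfdc2 in the same 15 are epithelial. Sftpa1 was at 6.34 and 2.10 CPM in members and 19250 and 11627 CPM in Epcam-positive cells, and Wfdc2 at 3.72 and 1.26 CPM against 2685 and 2822 CPM. Cfap74 and Ampd1, which overlaps another annotated gene, completed the list.

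General capillary genes outside the rule stayed within 1.5-fold over all members. None of the 11 identity genes outside the rule passed 1.5-fold, 9 of 11 were below 0 on the log2 scale, and their median log2 ratio was -0.15 against -0.01 over all genes. Tmem100, a BMP9 and ALK1 target, was at 1582 CPM in control and 1063 CPM in Dnmt1iECKO, a log2 ratio of -0.57 (-0.60 to -0.54). Plvap had a log2 ratio of -0.42 (-0.45 to -0.38), and 74.8% of control and 62.8% of Dnmt1iECKO members had a Plvap UMI after thinning, against 0.952% and 0% of Epcam-positive cells. Cxcl12, a chemokine that holds CXCR4-positive cells, ran the other way at 275 and 404 CPM, a log2 ratio of 0.55 (0.50 to 0.61). In members without vein or venule markers the median of the 11 genes was -0.04. With cells chosen again and summed after thinning it was 0.04, so the direction of the list turned in that setting.

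Of the 6 markers that chose the cells, Npr3 differed most between the libraries. Npr3, the clearance receptor for natriuretic peptides, was at 333 CPM in control and 172 CPM in Dnmt1iECKO, and after thinning its UMI was found in 44.4% and 28.0% of members. Sema3c, a secreted semaphorin, was at 2045 and 1713 CPM, Kit, the stem cell factor receptor, at 466 and 402 CPM, Glp1r, the GLP-1 receptor, at 406 and 380 CPM, and Bmp6 at 688 and 676 CPM. Aplnr, the apelin receptor, was at 66.5 and 87.2 CPM. When Npr3 was left out of the rule, the log2 ratio of Npr3 was -0.97, near the -0.96 with it.

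Pathways of capillary growth and flow differed little. Of 16 BMP signalling genes and 11 Notch genes, 0 passed 1.5-fold in either direction, with medians of -0.10 and -0.06. The canonical target Id3 was at 401 and 331 CPM, and the Notch target Hes1 at 138 and 104 CPM. In the VEGF and angiopoietin list 1 of 13 genes was higher, Nrp2, a VEGF-C and semaphorin co-receptor, at 45.3 and 85.8 CPM (log2 ratio 0.92, 0.80 to 1.04). Vegfa was at 450 and 379 CPM and Angpt2 at 14.4 and 19.4 CPM. Of 13 tumor angiogenesis genes, Vwa1 was higher, at 9.62 and 15.01 CPM. None of 15 vascular tone and none of 15 junction genes passed 1.5-fold; Calcrl, the receptor for CGRP and adrenomedullin, was at 3840 and 2936 CPM, Nos3 at 54.4 and 66.8 CPM and Cldn5 at 923 and 815 CPM.

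Lipid uptake held 2 of 9 genes lower and 0 higher. Fabp4, a fatty acid carrier, was at 30.7 and 19.7 CPM, but 1 cell held 34.4% of its UMIs in control and 1 cell 36.2% in Dnmt1iECKO. Tcf15, part of the Meox2 and Tcf15 pair that drives fatty acid transport in capillaries, was at 5.12 and 2.94 CPM (log2 ratio -0.80, -1.39 to -0.26). Cd36, the fatty acid translocase, was at 2048 and 1709 CPM and Gpihbp1, which anchors lipoprotein lipase on capillaries, at 654 and 590 CPM. The median of the list was -0.12.

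The aerocyte identity genes outside the rule showed 1 gene higher and 1 lower of 9. Cyp4b1, a cytochrome P450, was at 291 CPM in control and 109 CPM in Dnmt1iECKO members, a log2 ratio of -1.41 (-1.50 to -1.33), and 39.5% and 21.1% of thinned members had its UMI. In aerocytes Cyp4b1 was at 1599 and 1131 CPM. Igfbp7, an IGF-binding protein of activated vessels, was at 288 and 524 CPM in members, a log2 ratio of 0.86 (0.81 to 0.91), and at 5699 and 5528 CPM in aerocytes. When the limit on aerocyte markers was dropped, so that cells of both types entered, the log2 ratio of Igfbp7 was 0.03, and after thinning it was 0.44, both within 1.5-fold.

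Among 14 leukocyte adhesion genes, 3 inducible molecules, Selp, Sele and Vcam1, were higher. Alcam was lower, at 21.9 and 14.3 CPM, and stood at 1989.5 and 1673 CPM in Epcam-positive cells. Its log2 ratio was -0.22, within 1.5-fold, without cells bearing non-endothelial markers. Selp was at 116 CPM in control (2975 UMIs) and 444 CPM in Dnmt1iECKO (5293 UMIs), a log2 ratio of 1.93 (1.87 to 2.00). Sele, E-selectin, was at 33.0 and 114 CPM, a log2 ratio of 1.79 (1.66 to 1.92). Vcam1, which binds the integrin VLA-4 of T cells and monocytes, was at 158 and 365 CPM, a log2 ratio of 1.21 (1.15 to 1.27) that was 0.54 after thinning, within 1.5-fold. Selp and Sele had under 100 UMIs in the cells chosen after thinning, so no log2 ratio is given for them there. The rest of the list stayed within 1.5-fold, with Icam2 at 539 and 474 CPM, Icam1 at 531 and 624 CPM, Cd34 at 213 and 232 CPM and Podxl at 323 and 320 CPM. The median of the list was 0.03. After thinning, a Selp UMI was found in 3.23% (2.55 to 4.04%) of control and 5.95% (4.56 to 7.61%) of Dnmt1iECKO members and a Vcam1 UMI in 6.51% (5.54 to 7.59%) and 11.1% (9.21 to 13.2%), and neither in any of 105 and 66 Epcam-positive cells.

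These adhesion genes are also vein and venule markers, and much of their RNA came from the vein-marked members. Selp had 2926 of its 2975 control UMIs and 5237 of its 5293 Dnmt1iECKO UMIs there. In vein-marked members Selp was at 346 and 1062 CPM, and in the rest at 2.86 and 8.01 CPM, a log2 ratio of 1.48 (0.91 to 2.07). Vcam1 was at 433 and 829 CPM in vein-marked members and 22.1 and 37.8 CPM in the rest, where its log2 ratio was 0.77 (0.54 to 1.00). Sele was at 2.16 and 19.6 CPM in the rest, a log2 ratio of 3.18 (2.65 to 3.75) on 37 and 137 UMIs. Icam1 differed in sign, with 724 and 958 CPM in vein-marked members and 435 and 389 CPM in the rest. Vwf, the von Willebrand factor of veins and platelets, and Vegfc likewise went from log2 ratios of 0.58 and 0.46 in vein-marked members to -0.27 and -0.40 in the rest. Because the split was made on Selp, Sele, Vcam1 and Vwf themselves, their low level in the rest follows from it. Their ratios within each subset are likewise read in cells chosen on these genes.

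**Figure D4:**
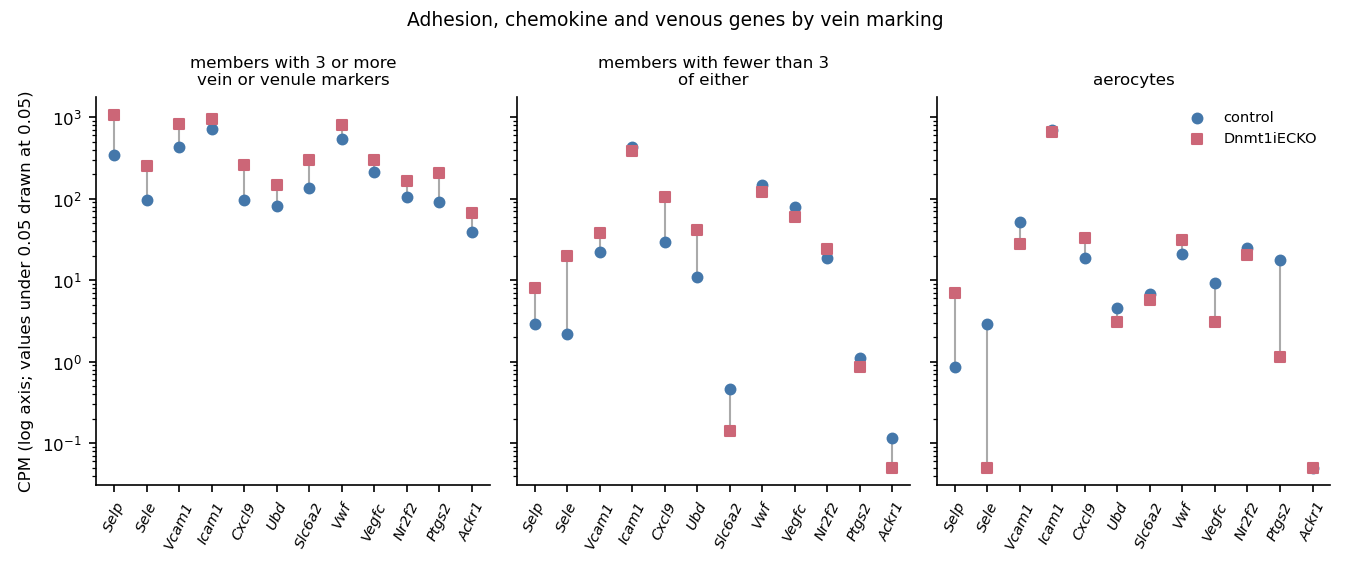
CPM (log axis) of 12 adhesion, chemokine and venous genes in general capillary cells with 3 or more vein or venule markers (left), in those with fewer (middle) and in aerocytes (right), control as blue circles and Dnmt1iECKO as red squares joined by a line. Red lies above blue for every gene at the left, whereas red lies below blue for Icam1, Vwf, Vegfc, Slc6a2, Ptgs2 and Ackr1 in the middle and for Vcam1, Sele, Ptgs2 and Vegfc among others in aerocytes.

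Chemokines had 5 of 10 genes higher and 0 lower, with a median of 0.67 that was 0.17 after thinning. Cxcl9, which draws CXCR3-positive T cells, was at 51.4 CPM in control and 167 CPM in Dnmt1iECKO members, a log2 ratio of 1.70 (1.60 to 1.80), and its UMI was in 2.41% (1.83 to 3.12%) and 5.15% (3.86 to 6.71%) of thinned members and in 0% and 1.52% of Epcam-positive cells. After thinning, the log2 ratio of Cxcl9 was 0.46, within 1.5-fold. At full depth it was higher in both subsets, with 95.6 and 256 CPM in vein-marked members and 29.6 and 104 CPM in the rest. Cxcl10, a ligand of the same receptor, was at 244 and 317 CPM, a log2 ratio of 0.38 (0.32 to 0.44). Ackr1, the Duffy chemokine receptor of venules, was at 12.8 and 27.8 CPM, but 1 cell held 25.4% of its UMIs in control and 1 cell 26.9% in Dnmt1iECKO. Cxcl1, Cxcl2 and Ccl2, targets of NF-κB, were at 10.6, 4.19 and 4.30 CPM in control and 20.1, 7.55 and 7.46 CPM in Dnmt1iECKO. Cxcl1 had a log2 ratio of -0.19 without the vein-marked cells. Without those cells 2 of 9 chemokines were higher, beside 230 of 10418 over all genes.

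NF-κB and TNF targets had 10 of 27 genes higher and 0 lower, with a median of 0.22. Beside Vcam1, Sele, Cxcl1, Cxcl2 and Ccl2, the 10 were Ptgs2, Tnfaip2, Il6, Nfkbie and Traf1. Ptgs2 (COX-2, which makes prostaglandin precursors) was at 30.9 and 86.9 CPM in members, 91.1 and 209 CPM in vein-marked members and 1.11 and 0.858 CPM in the rest. The feedback inhibitors Nfkbia, at 1096.5 and 1277 CPM, and Tnfaip3, at 101 and 132 CPM, stayed within 1.5-fold. Ier3, at 2004 and 1828 CPM, and Irf1, at 1264 and 1188 CPM, were slightly lower. Without the vein-marked cells 4 of 24 genes were higher, beside 230 of 10418 over all genes, and the median was 0.12.

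The IFNγ response had 2 of 32 genes higher, Cxcl9 and Ubd, and 0 lower, with a median of 0.05. Ubd, the ubiquitin-like modifier FAT10, was at 33.9 and 84.5 CPM, a log2 ratio of 1.32 (1.19 to 1.45), with 24.8% of its control UMIs in 1 cell; in members without vein markers it was at 10.98 and 40.8 CPM. The guanylate-binding proteins and immunity-related GTPases that make up most of the list stayed near equal, with Iigp1 at 1396 and 1268 CPM and Gbp2 at 335 and 347 CPM. Most genes of the response thus stayed within 1.5-fold. Cxcl9 and Ubd are also 2 of the markers of the IFNγ state, so the higher share of cells in that state is not separate from them.

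Type I interferon genes ran slightly lower. None of 32 passed 1.5-fold, 26 were below 0 and the median was -0.08. Ifit1, an effector that binds viral RNA, was at 185 and 127 CPM, a log2 ratio of -0.54 (-0.63 to -0.46), and Ifit3 at 84.9 and 64.4 CPM. In vein-marked members the gap was wider, with 5 of 32 genes lower, beside 201 of 9390 over all genes. Ifit1 was there at 209 and 113 CPM and Isg15 at 365 and 234 CPM. Rsad2, an antiviral enzyme, was higher in Dnmt1iECKO at 21.2 and 28.5 CPM, with 23.8% of its Dnmt1iECKO UMIs in 1 cell.

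Antigen presentation and checkpoint genes were close to equal. Of 19 MHC class I genes 0 passed 1.5-fold and the median was -0.02, with Tap1 at 116 and 136 CPM and Nlrc5 at 143 and 129 CPM. Of 8 MHC class II genes, H2-Ab1 was at 559 and 577 CPM and H2-Aa at 624 and 694 CPM in members against 34.3 and 36.8 CPM for H2-Ab1 in aerocytes. The 1 gene higher in that list was Ctss, a protease of myeloid cells, at 4.03 and 10.2 CPM in members and 4430.5 and 3961 CPM in Ptprc-positive cells. Cd274 (PD-L1) was at 89.9 and 108 CPM, a log2 ratio of 0.27 (0.17 to 0.37), and Cd40 at 50.8 and 48.0 CPM. Of 9 checkpoint and costimulation genes 1, Tnfsf9, was lower, at 4.69 and 2.77 CPM, with 36.4% of its Dnmt1iECKO UMIs in 1 cell. Icosl had 35 and 29 UMIs, and Tnfsf4 had 1 and 0, which is too few to compare.

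**Figure D5:**
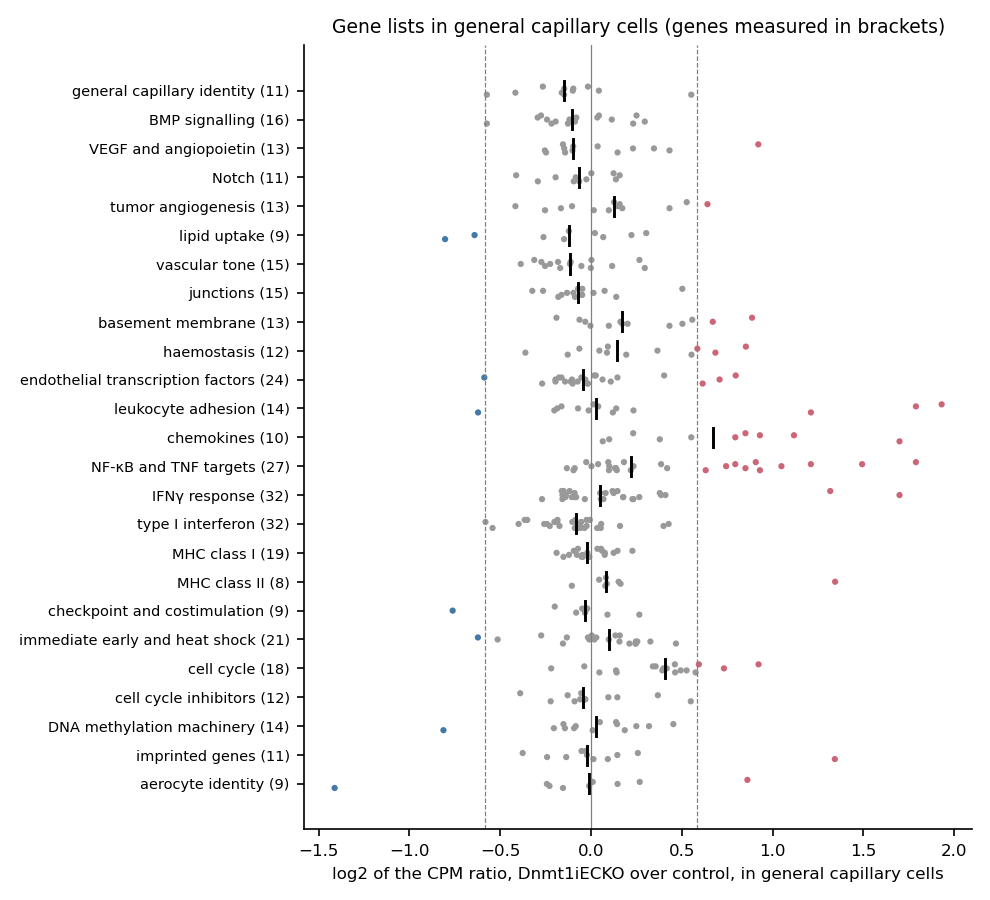
Log2 of the CPM ratio, Dnmt1iECKO over control, in general capillary cells for each gene of 25 lists (points) with the list median (black bar), zero and 1.5-fold marked by lines and the number of measured genes in brackets. Chemokines (median 0.67), cell cycle (0.41) and NF-κB targets (0.22) lie furthest to the right, and general capillary identity (-0.15) and lipid uptake (-0.12) furthest to the left.

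Cell cycle genes had a median of 0.41, with 3 of 18 higher and 0 lower. Ccnb1 was at 4.73 and 8.97 CPM, Cdk1 at 18.1 and 30.0 CPM and Ube2c at 40.8 and 61.6 CPM, all genes of G2 and mitosis. Without the cells that had 3 or more markers of a non-endothelial type, all 3 were within 1.5-fold, at log2 ratios of 0.47 for Ccnb1, 0.49 for Cdk1 and 0.12 for Ube2c. By contrast the replication genes Mcm3, Mcm4 and Mcm6 stood at 38.0 and 32.6, 28.4 and 27.7, and 22.3 and 22.98 CPM. The share of proliferating cells was alike (2.20 and 2.32% after thinning). With every cell thinned to the same depth the median over the genes that still had 100 UMIs, which left out Ccnb1, Cdk1 and Ube2c, was -0.07. Of 12 cell cycle inhibitors 0 passed 1.5-fold, and Cdkn1a (p21) was at 679 and 582 CPM.

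Basement membrane and haemostasis genes held a few higher members. Of 13 basement membrane genes, Hspg2 (perlecan) at 11.4 and 21.1 CPM and Col18a1 (source of endostatin) at 10.3 and 16.4 CPM were higher, and the abundant Col4a1 and Sparc were at 875 and 937 CPM and at 1269 and 1266 CPM. Of 12 haemostasis genes, F2r (the thrombin receptor PAR1) at 26.3 and 47.6 CPM, Plau at 3.44 and 5.54 CPM and F8 at 6.65 and 9.98 CPM were higher; Thbd, the anticoagulant thrombomodulin, was at 528 and 411 CPM. The median of the haemostasis list was 0.14 and turned to -0.16 after thinning. Among 24 endothelial transcription factors 3 were higher and 1 lower. Nr2f2, the vein-fate factor COUP-TFII, was at 47.3 and 82.1 CPM, Mecom at 58.7 and 95.9 CPM and Prox1 at 3.01 and 4.61 CPM, whereas Nr2f1 was at 3.40 and 2.26 CPM. In members without vein markers Nr2f2 was at 18.7 and 24.04 CPM and Mecom at 55.9 and 56.8 CPM. Nr2f2 is 1 of the vein markers that made this split, so its lower level there follows from it. In these members 0 of 22 factors passed 1.5-fold, beside 230 genes higher and 251 lower of 10418 over all genes. After thinning, the log2 ratio of Mecom was -0.04, so its direction turned, and those of Nr2f2 and F2r were 0.13 and 0.30, within 1.5-fold. The abundant factors Epas1 at 2038 and 1937 CPM, Foxp1 at 1346 and 1252 CPM and Erg at 331 and 327 CPM were near equal, and the lung capillary factor Foxf1 was at 263 and 218 CPM.

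Germline genes, many of which DNA methylation holds silent in other tissues, were near the detection limit in both libraries. Of 24 germline genes 1, Brdt, reached 100 UMIs, at 8.06 and 5.79 CPM. Its log2 ratio was -0.48 (-0.89 to -0.08), within 1.5-fold, and -0.10 without vein or venule cells. The 24 genes summed to 12.2 and 12.1 CPM, near equal, and the 23 below 100 UMIs were not compared singly. Of 11 measured imprinted genes only Plagl1 passed 1.5-fold, at 2.35 and 5.96 CPM, with 22.5% of its Dnmt1iECKO UMIs in 1 cell, and the median was -0.02. Plagl1 had under 100 UMIs in members without vein markers, so no log2 ratio is given for it there. Immediate early and heat-shock genes, which respond to dissociation, had a median of 0.10 with 0 of 21 higher and 1 lower, Hspa1b (an inducible Hsp70) at 296 and 192 CPM.

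RNA of other cell types was present at low levels and in part differed between the libraries. Myeloid Tyrobp was at 2.15 and 6.04 CPM in members and 1244 and 1373 CPM in Ptprc-positive cells, and 3 of 3 measured myeloid markers were higher, with the 6 markers summing to 35.6 and 66.5 CPM. Platelet markers summed to 69.4 and 108 CPM (2 of 4 higher) and haemoglobin genes to 205 and 318 CPM (3 of 4 higher), and 3.36% and 5.16% of members had 3 or more platelet markers. The 5 alveolar type 1 markers summed to 345 and 263 CPM and 8.39% and 4.77% of members had 3 or more of them, and the 5 alveolar type 2 markers summed to 57.3 and 18.4 CPM. T cell and neutrophil markers were near 0: the 6 T cell markers summed to 1.49 and 5.37 CPM and the 4 neutrophil markers to 1.80 and 8.30 CPM, and 0 of 2384 and 0 of 1028 members had 3 of either or of the melanoma markers, which allows up to 0.155% and 0.358%. At full depth 0 control and 1 Dnmt1iECKO member had 3 or more B cell markers. Plasma cell genes, a list added after the data were seen, summed to 47.4 and 117 CPM with 3 of 3 measured higher. Col1a1, a fibroblast collagen, was at 10.3 and 64.8 CPM with 92.2% of its Dnmt1iECKO UMIs in 1 cell. The part of these cell types and of free RNA in the results above was not tested.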

How the data were processed

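Single-cell RNA-seq was measured in 1 control and 1 Dnmt1iECKO library of sorted CD31+CD45- cells. The authors aligned reads with Cell Ranger 9.0.1 to mm10 and deposited raw UMI counts per gene and cell barcode (32285 features), which were used as deposited. The study's methods name a lower limit of 9000 genes for a cell to be kept. It was not applied, since only 28 control and 52 Dnmt1iECKO cells, and 0 members, had more. Counts were summed over the members of each library and given as CPM, with exact 95% intervals for levels, shares and ratios that cover counting error only. With 1 library per group no test was possible. Genes needed 100 UMIs over both libraries and were called past 1.5-fold. Shares were read again after thinning cells to 2000 UMIs, over the same members (2319 and 991 with enough UMIs). Log2 ratios and list medians after thinning are over cells chosen again on the thinned counts (2021 and 775). Genes were named by rule: the 12 markers and Dnmt1, up to 3 at each end of every list, the 15 furthest each way with no cell above 20% of a gene's UMIs (without unnamed gene models), the 15 leading over aerocytes and over other TECs among genes in 25% of members, and markers of other cell types. Other list members were named for their role after their values were seen. The 38 symbols on several rows were left out. Members, lists and rules were chosen with earlier results of these data known. Vein and venule subsets were added after the data were seen. The ratio code was tested on simulated data. Software was Python 3.11.15, numpy 2.4.6, scipy 1.17.1, pandas 2.3.3 and scanpy 1.11.5.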

Additional observations from a re-analysis of the deposited data

Results flagged for a closer look

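For 7 named genes past 1.5-fold in general capillary cells, the log2 ratio of Dnmt1iECKO over control had the opposite sign in aerocytes. Their counting intervals lay on opposite sides of 0. The share of all measured genes that did so is not given, so the number of genes is no result in itself. The difference between the cell types was not tested, since each genotype has 1 library. Igfbp7 was at 0.86 in general capillary cells and -0.04 in aerocytes, and Hspa1b at -0.62 and 0.40. Vcam1 was at 1.21 and -0.89, with 46.6% of the control and 53.4% of the Dnmt1iECKO aerocyte UMIs in 1 cell each. Sele was at 1.79, while aerocytes had 24 UMIs in control, all in 1 cell, and 0 in Dnmt1iECKO. Ptgs2 was at 1.49 and -3.94, Cxcl1 at 0.93 and -4.21 and Plagl1 at 1.34 and -2.65. In control aerocytes 1 cell held 51.0% of the Ptgs2, 35.0% of the Cxcl1 and 54.5% of the Plagl1 UMIs. Dnmt1iECKO aerocytes had only 3 Ptgs2, 10 Cxcl1 and 5 Plagl1 UMIs.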

How the results depend on the processing

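No paired analysis was possible because each genotype has 1 library and no replicate. Of 26 alternatives, those without vein or venule cells and without cells bearing non-endothelial markers were chosen after seeing the data. The share of TECs had a log2 ratio of -0.12 after thinning. Dnmt1 stayed lower in every alternative, at -1.10 after thinning and -1.01 with Aplnr left out of the markers. The number of genes measured changed with the setting. The 387 genes higher and 229 lower of 11278 became 90 and 143 of 6917 after thinning. They were 94 and 98 of 5648 without genes higher in the removed cells, and 230 and 251 of 10418 without vein or venule cells. With at least 30 UMIs they were 804 and 566 of 13242, and with at least 300 UMIs 191 and 80 of 9176. The higher genes numbered 711 of 11680 with at least 2 markers and 609 of 12227 without a limit on aerocyte markers, beside 208 and 305 lower. Thus more genes were higher than lower except after thinning, without genes higher in the removed cells and without vein or venule cells, and the cause was not tested. Single genes changed sign. The log2 ratio of Ednrb was -0.62 after thinning and -0.50 without the aerocyte limit, the log2 ratio of Plau -0.15 without that limit and -0.035 as a mean of CPM over cells, and the log2 ratio of Nr2f1 0.014 without that limit. The log2 ratio of Alcam was 0.45 with at least 2 markers, the log2 ratio of Cxcl1 -0.19 without vein or venule cells and the log2 ratio of Mecom -0.036 after thinning. Depth limits genes under 100 UMIs, and 1 library per genotype limits every comparison.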
